A study of Mus musculus with 336 samples.

Results

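The proteasome subunit genes are the mouse genes whose symbols run from Psma to Psmg followed by a number. Psmb8, Psmb9 and Psmb10, which encode the inducible catalytic subunits of the immunoproteasome, were set apart. Members had to average 1 FPKM or more (fragments scaled by transcript length and by sequencing depth) in each of 3 deposited tables. Of 48 symbols that match the pattern, 43 were members, among 10577 genes that pass the same floor in all 3 tables. Psma8, whose product belongs to a proteasome of male germ cells, and Psmb11, a catalytic subunit of the thymus, stayed below the floor. The members comprised 14 genes of the core particle, 20 of the regulatory particle and 9 others. The core genes were the 7 Psma genes of the alpha rings and the 7 Psmb genes of the beta rings. The regulatory genes were the 6 Psmc genes, which encode the ATPases of the base, and 14 Psmd genes. The others were the activator genes Psme1 to Psme4, the gene of the regulator PI31 (Psmf1) and the chaperone genes Psmg1 to Psmg4.

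The proteasome degrades proteins that carry ubiquitin chains. Its core particle is a barrel of stacked rings with the proteolytic sites inside, and the regulatory particle caps the barrel, binds ubiquitin, removes it and threads the substrate through the ATPase ring. When proteasome activity is short, the factor NRF1 (gene Nfe2l1) is known to induce nearly all subunit genes through antioxidant response elements, so the genes often move as a set. In interferon-treated cells PA28 alpha and beta (Psme1 and Psme2) are induced together with the immunoproteasome. Psmd5, Psmd9 and Psmd10 are named as regulatory subunits but encode chaperones of base assembly.

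The series compared Bmal1-/- (KO) with wild-type (WT) material of C57BL/6 background in 3 time courses. BMAL1, the product of Arntl, binds DNA together with CLOCK and drives the clock's feedback loop. The first course used KO and WT mouse skin fibroblasts (MSF), grown to confluence, with an age given as not applicable. The second used KO and WT liver of adult mice, cut into pieces of about 500 micron and kept on membranes (the liver slices). Both genotypes of both courses received 100 nM dexamethasone for 15 min, a glucocorticoid that sets cells to a common phase, and harvests every 3 h for 3 days began 48 h later (CT00 to CT69). Each of these 4 groups had 24 time points. The 3 samples of a time point, labelled as runs, share 1 FPKM value per gene, which is called a library here. The third, a short liver course with no age given, had 4 times (T00, T06, T12, T24). Each genotype had 3 replicates per time there, sequenced in 2 runs. The same treatment text stands with these samples, without the time from dexamethasone to T00. The labels do not say how many mice or cell isolates gave the libraries of a genotype, so a difference between genotypes and a difference between isolates cannot be told apart, and p-values measure the spread between these libraries, which may be technical.

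Depth is unknown, since FPKM hold no read counts. Every member had a value above 0 in every library. Arntl itself does not check the labels, since a value per gene does not show a missing exon: its level was 5.67 to 7.84 FPKM in KO and 8.79 to 11.9 FPKM in WT fibroblasts, overlapped between genotypes in the slices, and at T00 of the short course was 2.71 to 3.31 FPKM in KO against 0.126 to 0.392 FPKM in WT liver. Nr1d1, a target of BMAL1, ran from 3.72 to 6.33 FPKM in KO and from 8.60 to 15.9 FPKM in WT fibroblasts. In the slices it ran from 1.76 to 5.50 FPKM in KO and from 8.66 to 24.2 FPKM in WT, and in the short course it was at most 2.20 FPKM in KO and at least 17.6 FPKM in WT. The 4 KO slice libraries CT09, CT27, CT39 and CT42 correlated least with the other KO slices (median r of 0.858 to 0.873), and WT CT66 and CT69 least with the other WT slices (0.868 and 0.866). In the short course KO T24 replicate 2 stood apart, with a median r of 0.770 and the lowest summed FPKM (479770, against 596805 to 1013680 in the other samples). Hepatocyte markers such as Apob and Ttr were present in all liver groups and summed to at most 0.743 FPKM in fibroblasts, while Alb was listed at 0 in some liver libraries, among them all WT T00 samples. Of 8 listed fibroblast markers 5 were left in the fibroblast data after genes with flagged values were removed. These 5 summed to 3107 to 5032 FPKM in KO and 1385 to 1967 FPKM in WT fibroblasts. Of them 2 were higher and 3 lower in KO, with a median difference of -0.68 (log2).

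Levels per transcript length differed widely between members. Psmb4, a beta ring subunit without a proteolytic site, had the highest mean of the members in every group whose order was taken: 271 FPKM in KO and 489 FPKM in WT fibroblasts, 809 FPKM in KO and 961 FPKM in WT slices, and 198 FPKM in KO and 245 FPKM in WT liver at T00. At the other end Psma3, an alpha ring subunit, averaged 6.40 FPKM in KO and 7.67 FPKM in WT fibroblasts. Psmd10 (gankyrin), a chaperone of base assembly, averaged 6.21 FPKM in KO and 6.15 FPKM in WT liver at T00. Across time points the members were steadier in fibroblasts, with a median coefficient of variation of 6.04% in KO and 5.39% in WT, than in slices, with 18.4% in KO and 13.7% in WT.

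Psmd13, a lid subunit of the regulatory particle, was the exception. It ran from 29.7 to 217 FPKM in KO and from 39.02 to 272 FPKM in WT fibroblasts, a coefficient of variation of 57.3% and 51.7%, and no other member went above 20.8% in either. Between the 3 replicates of KO liver at T06 it was listed at 21.5, 166 and 201 FPKM, and between those of WT liver at 26.2, 118 and 241 FPKM. The authors' own confidence intervals for the fibroblasts reach 129% of the value to either side for Psmd13, against a median of 18.8% over the members. The cause was not tested, and Psmd13 is left out where a mean over members is given.

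Promoter sequences of the members were searched for 6 motifs. RefSeq promoters on GRCm38.p6 (250 bases before the start and 50 after it) were matched by symbol for 36 of the 43 members. The core of the binding site of ETS factors, searched as CCGGAAG on both strands, was found for 14 of the 36 members (38.9%) and 9.93% of all genes with a promoter. Of the 14, 9 were among the 17 regulatory particle genes with a promoter, 1 among the 11 core particle genes and 4 among the 8 others. The antioxidant response element, TGACNNNGC, was found for 6 of 36 members (16.7%) and 14% of all genes, and the E-box that CLOCK and BMAL1 bind, CACGTG, for 3 members (8.33%) and 8.09% of all genes. CCAAT was found for 12 members (33.3%) and 41.1% of all genes, and the interferon-stimulated response element, searched as GAAA, any 2 bases and GAAA, for 5 members (13.9%) and 3.99% of all genes. The heat shock element, searched as GAA, any 2 bases, TTC, any 2 bases and GAA, was found for 0 of 36 members and 0.662% of all genes. The shares of all genes are over 27025 symbols with no floor on expression, which the members had to pass. A share over expressed genes alone was not computed. A match is a description of letters and says nothing of binding. The 120 bases before the start are shown for the genes that led the differences between genotypes in fibroblasts (Psmd4, Psmc2), for the members that rose most in the short course (Psmd11, Psmd8) and for Psmb6, whose element ends at the base before the start. Capitals mark a match on either strand, and another start listed for Psmc2 is not shown.
Psmd4, chr3:95042615-95042734, minus strand: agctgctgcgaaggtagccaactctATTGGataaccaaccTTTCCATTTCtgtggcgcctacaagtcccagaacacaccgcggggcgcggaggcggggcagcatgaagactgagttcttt
Psmc2, chr5:21785155-21785274, plus strand: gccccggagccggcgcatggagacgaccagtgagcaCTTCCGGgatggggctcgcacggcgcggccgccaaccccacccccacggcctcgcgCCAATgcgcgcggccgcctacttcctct
Psmd11, chr11:80428495-80428614, plus strand: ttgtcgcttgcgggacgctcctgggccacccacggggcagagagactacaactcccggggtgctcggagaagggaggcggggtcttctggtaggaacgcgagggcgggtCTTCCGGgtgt
Psmd8, chr7:29180674-29180793, minus strand: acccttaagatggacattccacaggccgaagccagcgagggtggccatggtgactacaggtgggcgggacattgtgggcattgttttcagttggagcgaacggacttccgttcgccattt
Psmb6, chr11:70525237-70525356, plus strand: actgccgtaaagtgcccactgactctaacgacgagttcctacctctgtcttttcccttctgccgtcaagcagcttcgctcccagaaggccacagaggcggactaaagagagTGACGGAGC
The capitals mark CCAAT and the interferon-stimulated response element in Psmd4, the ETS core and CCAAT in Psmc2, the ETS core in Psmd11 and the antioxidant response element in Psmb6. Psmd4 is also among the members with an ETS core, by a match outside the printed bases. None of the 6 motifs was found in the printed bases of Psmd8.

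The fibroblast comparison asked how the steady level of the subunit genes differed without BMAL1. Most members were lower in KO fibroblasts, 34 of 43, and 6 were higher, where 80.8% of all 15065 genes tested were called, 43.7% lower and 37.1% higher (limma on log2(FPKM + 1), called at an adjusted p below 0.05 over all genes). The median difference, KO minus WT on the log2 scale, was -0.35 over the members and -0.04 over all genes. The median was -0.28 for the core particle, with 13 of 14 lower, -0.37 for the regulatory particle, with 16 of 20 lower, and -0.13 for the other members, with 5 of 9 lower. With a size limit of 0.5 on the log2 scale added, 17 members were lower and 0 higher (22.8% of all genes lower). After median-of-ratios rescaling 32 members were lower and 6 higher (41% and 39.6% of all genes). In 23 members the 24 KO values all lay below the 24 WT values, as they did for 21.2% of all genes.

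**Figure D1:**
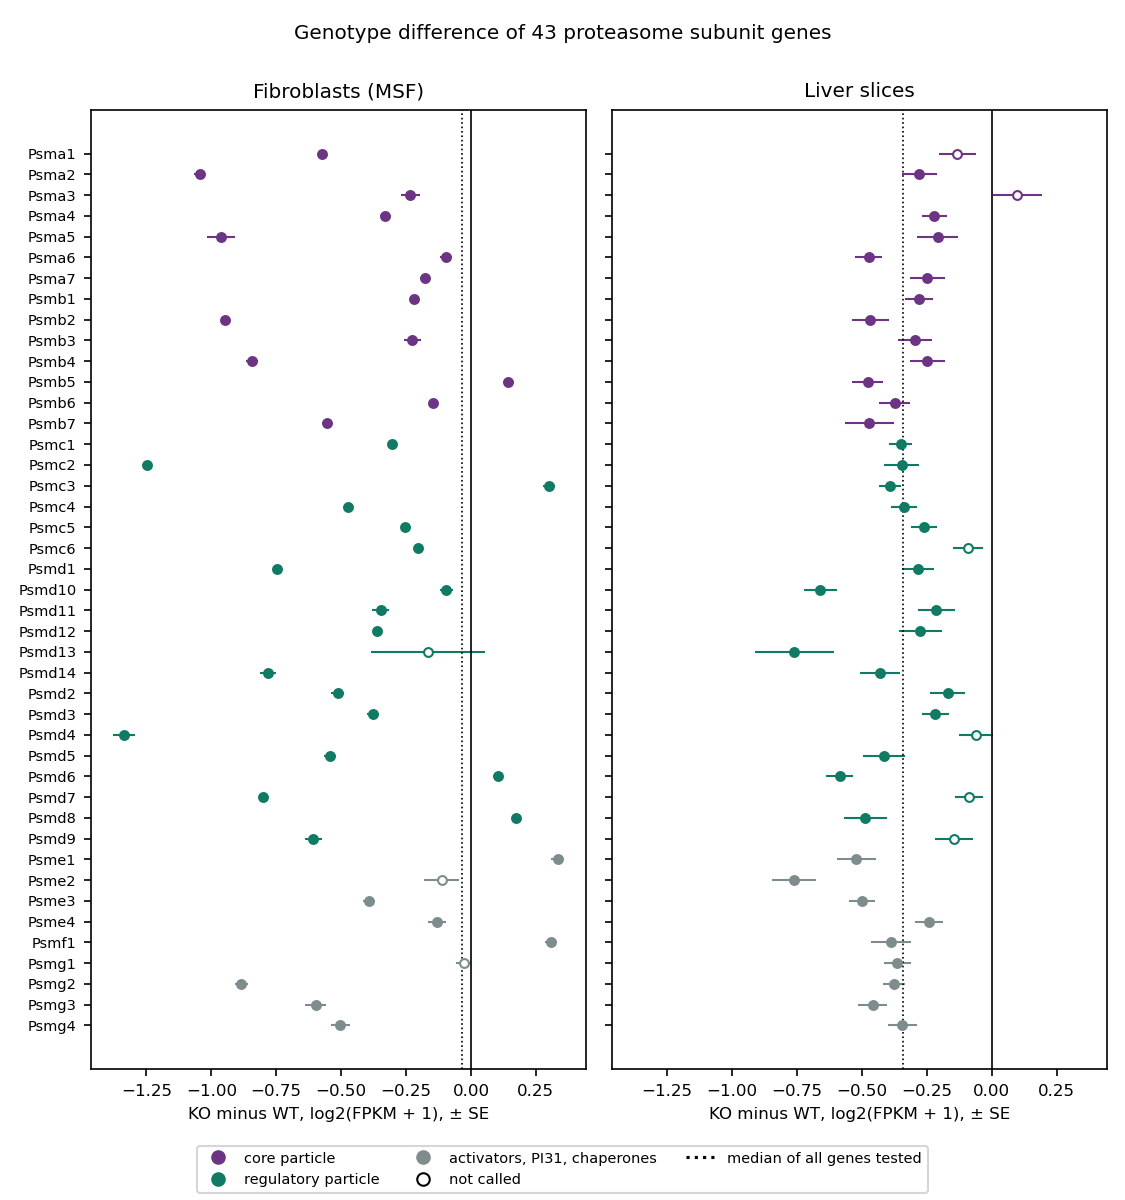
Difference between KO and WT on the log2(FPKM + 1) scale (x axis, bars ± SE) for each member gene (rows, purple for the core, green for the regulatory particle, grey for the others, open where not called), in fibroblasts on the left and liver slices on the right, 24 libraries per genotype. In fibroblasts the points spread from -1.33 (Psmd4) to 0.33 (Psme1) and most lie below the median of all genes (-0.04, dotted), while in slices they gather around it (-0.34, dotted).

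The widest differences were in subunits of the regulatory particle and the alpha rings. Psmd4, the ubiquitin receptor RPN10, had a lowest, median and highest value of 49.6, 69.4 and 89.3 FPKM in KO fibroblasts and 156, 177 and 197 FPKM in WT fibroblasts. Psmc2, an ATPase of the base, had 34.3, 37.1 and 39.4 FPKM in KO and 84.6, 89.0 and 94.6 FPKM in WT. Psma2, an alpha ring subunit, had 51.3, 54.6 and 59.3 FPKM in KO and 94.6, 115 and 127 FPKM in WT. In all 3 the genotypes were fully apart. The differences were -1.33 ± 0.04 for Psmd4, -1.25 ± 0.01 for Psmc2 and -1.05 ± 0.02 for Psma2 (log2, SE), each lower at 24 of 24 time points, with adjusted p of 3.57e-31, 7.61e-50 and 6.5e-38 in limma. Psma5, another alpha ring subunit, differed by -0.96 ± 0.05 (12.2, 18.3 and 23.8 FPKM in KO, 29.0, 37.0 and 42.2 FPKM in WT).

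The 6 members that were higher in KO fibroblasts came from several subcomplexes. Psme1, the alpha subunit of the activator PA28, had 153, 185 and 230 FPKM in KO and 122, 143 and 185 FPKM in WT (lowest, median and highest), a difference of 0.33 ± 0.02. Psmf1, the gene of PI31, had 17.7, 19.6 and 22.8 FPKM in KO and 14.5, 15.6 and 17.7 FPKM in WT, and was the only member whose KO values all lay above the WT values (0.31 ± 0.02; 14.5% of all genes did so). Psmc3, an ATPase of the base, differed by 0.30 ± 0.02, and Psmd8, a lid subunit, by 0.17 ± 0.01. Psmb5, the catalytic subunit with chymotrypsin-like activity, differed by 0.14 ± 0.02 and Psmd6, a lid subunit, by 0.10 ± 0.02. The remaining catalytic subunits were lower in KO, Psmb7 (trypsin-like) by -0.56 ± 0.02 and Psmb6 (caspase-like) by -0.14 ± 0.02. Reads of Psmb5, Psmb6 and Psmb7 are uncertain, since the annotation names 1, 2 and 1 pseudogenes of them. Psmd13, Psme2 and Psmg1 were not called, with differences of -0.16 ± 0.22, -0.11 ± 0.07 and -0.03 ± 0.03.

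**Figure D2:**
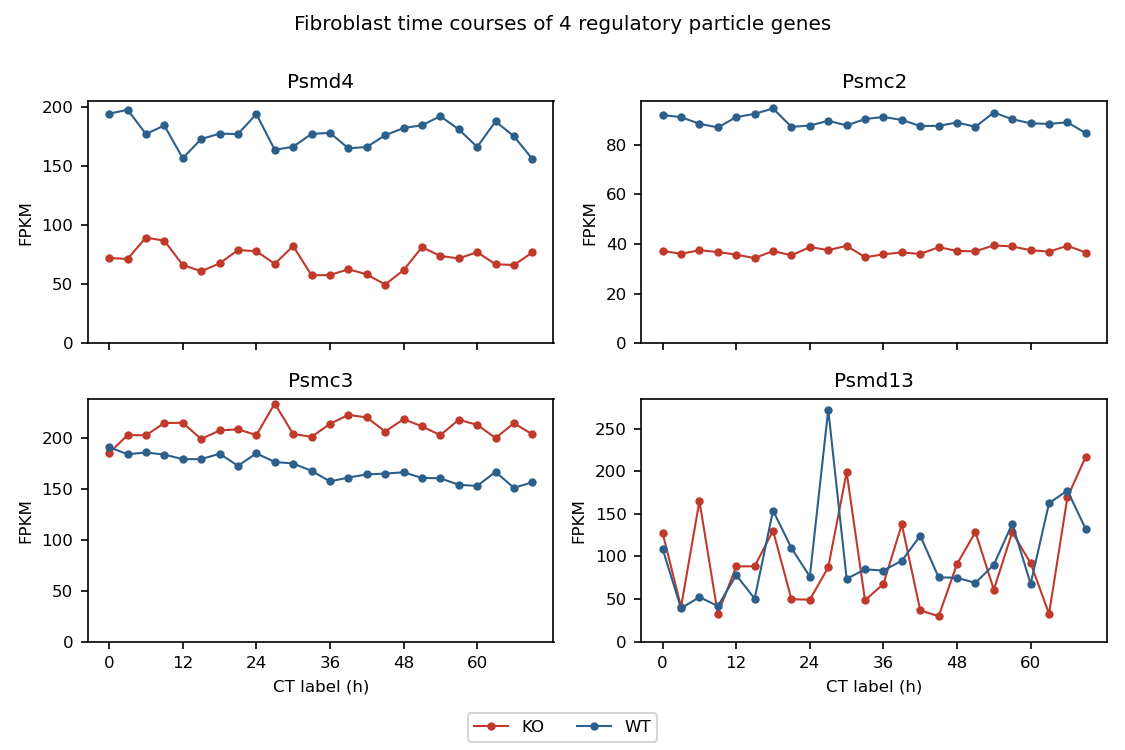
FPKM (y axis, from 0) against CT label in hours (x axis) for 4 regulatory particle genes in KO (red) and WT (blue) fibroblasts, 1 point per library. Psmd4 and Psmc2 stay lower in KO at every time point, Psmc3 is higher in KO at 23 of 24, and Psmd13 varies from 29.7 to 272 FPKM with no separation of the genotypes.

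Most genes of the associated, immunoproteasome and p97 lists were lower in KO fibroblasts, while the ubiquitin genes were split. All 17 tested genes for proteasome-associated and assembly factors were lower, among them Ubqln1, a shuttle for ubiquitylated proteins (-0.73 ± 0.02), and Txnl1, a thioredoxin-like protein of the regulatory particle (-0.77 ± 0.01). All 3 immunoproteasome genes were lower, with Psmb8 at -0.82 ± 0.03, Psmb9 at -0.76 ± 0.06 and Psmb10 at -0.17 ± 0.03. Of the 7 genes of the p97 complex, which extracts ubiquitylated proteins, 6 were lower and 1 higher, and of 5 tested ubiquitin and E1 genes 2 were lower and 1 higher. Of the 6 genes of NRF1 activation 4 were lower and 2 higher. Nfe2l1, which encodes NRF1, differed by -0.22 ± 0.02 and Ngly1, the glycanase that NRF1 needs, by 0.52 ± 0.02. Other groups moved beside them. All 8 proliferation genes were lower, summing to 67.1 to 119 FPKM in KO and 326 to 426 FPKM in WT fibroblasts, 9 of 10 heat shock genes were lower, and of 8 integrated stress response genes 6 were lower and 2 higher. Epithelial and keratinocyte markers summed to 46.8 to 130 FPKM in KO and 4.21 to 13.2 FPKM in WT fibroblasts, with 1 of the 6 tested and called (Krt19, 3.22 ± 0.04) and Krt5 listed at 0 in all WT fibroblasts. Endothelial markers summed to 1.13 to 2.09 FPKM in KO and 5.28 to 12.01 FPKM in WT fibroblasts, with 1 of the 6 tested and called (Kdr, -2.47 ± 0.06). The part of these groups in the difference of the subunit genes was not tested. Psma1 (-0.57 ± 0.02) lies on chromosome 7 at 114264606 to 114276118 (GRCm38), on the same chromosome as Arntl. Psmc4 (from 28041707), Psmd8 (from 29174188) and Psmd13 (from 140881968) lie elsewhere on that chromosome. Distances to Arntl were not computed and may differ between these genes. In KO fibroblasts Psmc4 was lower at 24 of 24 time points, Psmd8 was higher at 24 of 24, and Psmd13 was not called. A part of the chromosome in these differences was not tested.

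In the liver slices 37 of 43 members were lower in KO and 0 higher, but so were most genes: of 14566 tested 71.9% were called, 65.7% lower and 6.14% higher. The median difference was -0.34 over the members and -0.34 over all genes. With libraries rescaled by median-of-ratios factors, which sets the middle gene of each library level, the direction turned, with 12 members higher and 3 lower (24.4% and 24.3% of all genes). With the size limit of 0.5, 5 members were lower (29.4% of all genes). No member separated the 24 KO from the 24 WT values, as 2.32% of all genes did with KO lower and 0.0137% with KO higher. Bulk tissue cannot tell fewer cells of a type from less RNA per cell. Markers moved with the genotype: all 8 macrophage and Kupffer markers were lower in KO (summed 63.2 to 335 FPKM in KO, 175 to 3633 FPKM in WT), 7 of 8 fibroblast markers and 4 of 6 endothelial markers were lower, and 3 of 8 hepatocyte markers were higher and 1 lower. Their part was not tested.

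The members that were lower in KO slices under both scalings were Psme2, Psmd10 and Psmd6. Psme2, the beta subunit of PA28, had a lowest, median and highest value of 8.61, 14.0 and 29.5 FPKM in KO slices and 18.5, 26.3 and 36.6 FPKM in WT slices. It differed by -0.76 ± 0.08, lower at 24 of 24 time points, and by -0.38 ± 0.09 after rescaling. Psmd10 had 11.0, 15.3 and 17.6 FPKM in KO and 15.4, 24.1 and 38.0 FPKM in WT (-0.66 ± 0.06, and -0.28 ± 0.06 after rescaling). Psmd6 had 41.2, 53.6 and 71.4 FPKM in KO and 60.1, 82.8 and 105 FPKM in WT (-0.59 ± 0.05, and -0.19 ± 0.06 after rescaling). The ranges overlapped in each. Psmd13 differed by -0.76 ± 0.15, but its values scatter as described above, and it was not called after rescaling. All 3 immunoproteasome genes were lower, led by Psmb10 (-0.83 ± 0.09). Among members not called in the deposited values, Psma3 (0.10 ± 0.10), Psmd4 (-0.06 ± 0.06) and Psmd7 (-0.09 ± 0.05) were called higher after rescaling, at 0.48 ± 0.10, 0.34 ± 0.07 and 0.31 ± 0.06. Psmd4, the member furthest apart in fibroblasts, had 192, 262 and 347 FPKM in KO and 192, 271 and 362 FPKM in WT slices.

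Over the 3 days in culture the share of members with a called trend in fibroblasts was near that of all genes. In KO fibroblasts 9 members were called for a linear slope (26.3% of all genes), 8 falling (11.9%) and 1 rising (14.4%), and in WT fibroblasts 12 (31.1%), 8 falling (16.6%) and 4 rising (14.5%). Psme1 fell by 0.14 ± 0.02 in KO and 0.18 ± 0.02 in WT fibroblasts (log2 per 24 h), and Psmd8 rose by 0.09 ± 0.01 in KO and 0.09 ± 0.01 in WT. Psme2 fell by 0.19 ± 0.06 in KO, and Psmc3 by 0.10 ± 0.01 in WT. All 3 immunoproteasome genes fell in both genotypes, with a median slope of -0.26 in KO and -0.31 in WT. Without day 1 the counts of members were 3 in KO and 1 in WT, and without day 3 they were 3 and 6.

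The slopes themselves differed between KO and WT fibroblasts for 7 members (26.4% of all genes), 3 more positive (14.9%) and 4 more negative (11.5%) in KO. After rescaling 1 was more positive and 5 more negative. Psma2 fell by 0.05 ± 0.01 per 24 h in KO and rose by 0.07 ± 0.02 in WT, a difference of -0.12 ± 0.02 (adjusted p = 5.19e-06, limma). Psmc3 had no called slope in KO, against the fall in WT, with a difference of 0.12 ± 0.02 (adjusted p = 3.53e-06, limma). The other 5 differed by at most 0.08 in size, and no member was called without day 1.

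In the slices 3 members had a called slope in KO (5.75% of all genes), 1 rising (1.96%) and 2 falling (3.79%), and 10 in WT (20.1%), 0 rising (9.84%) and 10 falling (10.3%). After rescaling the KO count was 1 rising and 1 falling. Psmg2, a chaperone of alpha ring assembly, fell by 0.23 ± 0.04 in KO and 0.21 ± 0.04 in WT slices, and Psmg4, of the second chaperone pair, by 0.16 ± 0.05 in KO and 0.24 ± 0.05 in WT. The KO call of Psmg4 was lost after rescaling (adjusted p = 0.0582, limma) and without any 1 of 11 time points (0.0512 to 0.122). Psmd8 rose by 0.20 ± 0.05 in KO slices. The 10 called in WT all fell, among them the scaffold subunit Psmd1 (-0.20 ± 0.04) and the lid subunit Psmd7 (-0.17 ± 0.04). Both had their lowest WT values at CT66 and CT69, the WT slices that correlated least with the others. Psmd1 had 67.2 and 53.3 FPKM there and Psmd7 105 and 102 FPKM. A count without both libraries is not given. No member differed between genotypes in slope (limma, 0.0687% of all genes called, 0.0275% more positive and 0.0412% more negative in KO; 2 members at an unadjusted p below 0.05). The KO count was 0 without day 1, 1 without day 2, 0 without day 3 and 5 without the 4 KO libraries that stand apart, and the WT count was 6 without day 1 and 0 without day 3. Hepatocyte markers fell beside them, 3 of 8 in KO and 5 of 8 in WT, and 8 of 8 macrophage markers rose in WT slices. Their part was not tested.

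A 24 h rhythm was called for some subunit genes in KO slices, and the calls depended on single libraries. The test was an F test on the cosine and sine of a 24 h wave beside a linear trend. In fibroblasts 0 members were called in KO (0% of all genes; 1 member at an unadjusted p below 0.05) and 0 in WT (0.0341%; 2 members), and in WT slices 0 (1.98%; 6 members). In KO slices 13 members were called (11.2% of all genes), 5 of the core and 8 of the regulatory particle. Called beside them were 4 of 7 tested macrophage and Kupffer markers (median amplitude 0.48 over the 7), 3 of 8 fibroblast markers (1.09 over the 8) and 2 of 4 proliferation genes, against 0 of 8 hepatocyte, 0 of 6 endothelial and 0 of 5 epithelial markers, and their part was not tested. The fitted peaks of the 13 members fell between 15.1 and 16.5 h. In the wider window from 12 to 24 h lay the peaks of all 13 members and of 56.5% of all called genes. Whether the wave differed between KO and WT slices was not tested.

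The widest waves were those of the lid subunits Psmd12, with an amplitude of 0.38 ± 0.09 on the log2 scale (adjusted p = 0.0253, limma), and Psmd14, the deubiquitinase RPN11 (0.37 ± 0.08, adjusted p = 0.0201). The error given with each amplitude is the SE of the cosine term alone, not of the amplitude. Psmd12 had 39.3, 53.3 and 98.2 FPKM in KO slices and 55.8, 72.7 and 94.5 FPKM in WT slices, as lowest, median and highest. Psmd2, a scaffold subunit, followed at 0.33 ± 0.07 and Psma3 at 0.31 ± 0.08. In 10 of the 13 members the highest KO value was CT42, one of the 4 libraries that correlated least with the others. Without those 4 libraries 0 members were called, with Psmd12 at 0.31 ± 0.07 (adjusted p = 0.0889, limma) and Psmd14 at 0.32 ± 0.07 (0.0694). Without CT15 alone the count was also 0, with amplitudes of 0.37 ± 0.09 for Psmd12, 0.37 ± 0.08 for Psmd14 and 0.33 ± 0.07 for Psmd2, close to those with it (adjusted p of 0.0603 to 0.0716, limma). Without day 2 or without day 3 it was 0, and with no filter on low values it was 6. Without CT27, CT42, CT48, CT63, CT30, CT39, CT54, CT57, CT66 or CT06 alone it was 4, 4, 6, 6, 7, 7, 7, 7, 7 and 8.

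**Figure D3:**
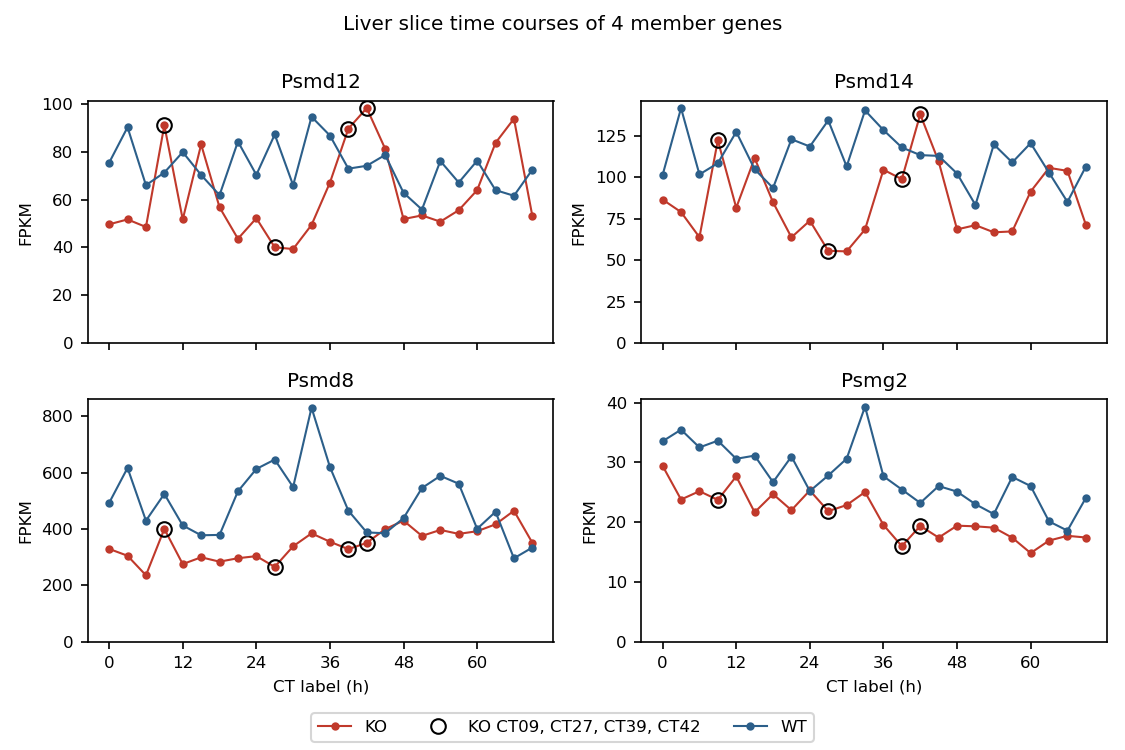
FPKM (y axis, from 0) against CT label in hours (x axis) for 4 members in KO (red) and WT (blue) liver slices, 1 point per library, with the KO libraries CT09, CT27, CT39 and CT42 ringed. Psmd12 and Psmd14 are highest in KO at CT42 and lowest in KO at CT30, Psmd8 climbs in KO over the 3 days while WT peaks at CT33, and Psmg2 declines in both genotypes.

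In the short liver course the median difference between genotypes was small. Over the 4 times 9 members were called (18.7% of all genes), 8 lower (11%) and 1 higher (7.75%) in KO, with a median difference of -0.09 over the members and -0.01 over all genes. Psmd8 differed by -0.29 ± 0.07, Psmb4 by -0.24 ± 0.06, Psmd3, a lid subunit, by -0.23 ± 0.05 and the alpha ring subunit Psma6 by -0.23 ± 0.05. Psmd11, the lid subunit that bridges to the core, was higher by 0.28 ± 0.08. None of the 9 was called when the 3 replicate numbers of a genotype were each averaged over time (0 members; 6 at an unadjusted p below 0.05). Psmd11 was not called without WT replicate 1 (0.18 ± 0.07, adjusted p = 0.104, limma) or without any 1 of KO replicates 1, 2 and 3 or WT replicate 2 (adjusted p of 0.0513 to 0.115). Psmd8 was not called without KO replicate 3 (adjusted p = 0.0867, limma) or WT replicate 3 (0.103), nor Psmb4 without WT replicate 2 (0.0787) or WT replicate 3 (0.0887). Without KO replicate 2 the count was 7, without KO replicate 3 it was 4, without WT replicate 2 it was 4 and without WT replicate 3 it was 3.

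Over the 24 h of the short course most members changed in both genotypes, and most of them fell. In KO liver 34 members were called (72.2% of all genes), 30 falling (37.8%) and 4 rising (34.4%) at the time of their widest change from T00, and in WT liver 33 (64.4%), 27 falling (32.4%) and 6 rising (32%). The KO count was 31 without KO replicate 2, whose T24 sample stood apart. The WT count was 20 without WT replicate 2 and 21 without WT replicate 3. The fall was broad at T06. There all 3 samples lay below all 3 at T00 for 35 of 43 members in KO (35.1% of all genes) and 31 of 43 in WT (33% of all genes), and above them for 0 members in KO and 2 in WT (26.5% and 29.1%). At T12 24 members lay below in KO (34.1%) and 20 in WT (32.2%), and 3 above in KO (28.6%) and 6 in WT (30%). The median change at T06 was -0.38 over the members and -0.09 over all genes in KO, and -0.42 and -0.05 in WT. By T24 it was -0.21 over the members and -0.01 over all genes in KO and -0.23 and 0.00 in WT. The changes at T06, T12 and T24 share the T00 samples. No member was called for a difference between genotypes in its course (limma F test; 1.75% of all genes, 0.614% with the widest difference above 0 and 1.14% below; 5 members at an unadjusted p below 0.05).

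Psme1, Psme2 and Psmg1 were among the members that fell most. Psme1 had 162, 126.5 and 136 FPKM at T00, 142.5, 110.0 and 118.5 FPKM at T06, 93.4, 107 and 86.0 FPKM at T12 and 57.4, 57.8 and 70.7 FPKM at T24 in KO liver. In WT liver it had 134, 163 and 161 FPKM at T00, 118, 105 and 121 FPKM at T06, 97.6, 118 and 97.5 FPKM at T12 and 56.95, 66.7 and 57.3 FPKM at T24. It was lower at each time than at the one before on average, and at T24 had changed by -1.18 ± 0.14 in KO and -1.32 ± 0.14 in WT. Psme2 had 17.5, 14.1 and 16.0 FPKM at T00 and 6.22, 6.10 and 5.44 FPKM at T24 in KO, and 15.6, 18.7 and 19.0 FPKM at T00 and 8.61, 8.53 and 7.92 FPKM at T24 in WT. It had changed by -1.28 ± 0.20 in KO and -1.0 ± 0.20 in WT at T24. Psmg1, a chaperone of alpha ring assembly, dropped early, with 21.8, 18.6 and 17.5 FPKM at T00 and 9.54, 10.8 and 13.6 FPKM at T06 in KO. In WT it had 15.2, 17.1 and 16.8 FPKM at T00 and 9.05, 10.7 and 11.0 FPKM at T06. Its change at T24 was -1.07 ± 0.15 in KO and -1.03 ± 0.15 in WT. Psma4, an alpha ring subunit, had changed by -1.06 ± 0.12 in KO and -0.98 ± 0.12 in WT at T24, and the base chaperone Psmd9 by -1.14 ± 0.15 in KO and -0.70 ± 0.15 in WT. The T24 samples of all 5 genes lay below the T00 samples in both genotypes.

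Psmd8 and Psmd11 went the other way. Psmd8 had 82.2, 74.9 and 73.8 FPKM at T00, 80.3, 98.4 and 84.3 FPKM at T06, 168, 116 and 123 FPKM at T12 and 142, 110 and 122 FPKM at T24 in KO liver. In WT liver it had 71.0, 76.4 and 74.8 FPKM at T00, 91.3, 100 and 100.1 FPKM at T06, 140, 162 and 195 FPKM at T12 and 215, 188 and 236 FPKM at T24. The rise at T24 was 0.68 ± 0.15 in KO and 1.51 ± 0.15 in WT, and in KO it was widest at T12 (0.79 ± 0.15). Psmd11 had 38.6, 34.8 and 38.3 FPKM at T00 and 57.8, 59.9 and 58.0 FPKM at T24 in KO, against 22.2, 19.4 and 25.5 FPKM at T00 and 51.03, 60.1 and 66.5 FPKM at T24 in WT. Its rise at T24 was 0.64 ± 0.17 in KO and 1.37 ± 0.17 in WT, and the genotypes were fully apart at T00 and overlapped at T24. The difference between genotypes in the course was not called for Psmd8 (adjusted p = 0.127, limma) or Psmd11 (adjusted p = 0.239). Psmd7, a lid subunit, rose by 0.53 ± 0.10 in KO and 0.44 ± 0.10 in WT, and Psme3, the nuclear activator PA28 gamma, by 0.45 ± 0.13 in KO and 0.42 ± 0.13 in WT. The Psme3 call was lost in KO without KO replicate 1, KO replicate 2 or WT replicate 3 (adjusted p of 0.0599 to 0.143, limma). In WT it was lost without KO replicate 3 or any 1 of the WT replicates (adjusted p of 0.0532 to 0.314, limma).

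**Figure D4:**
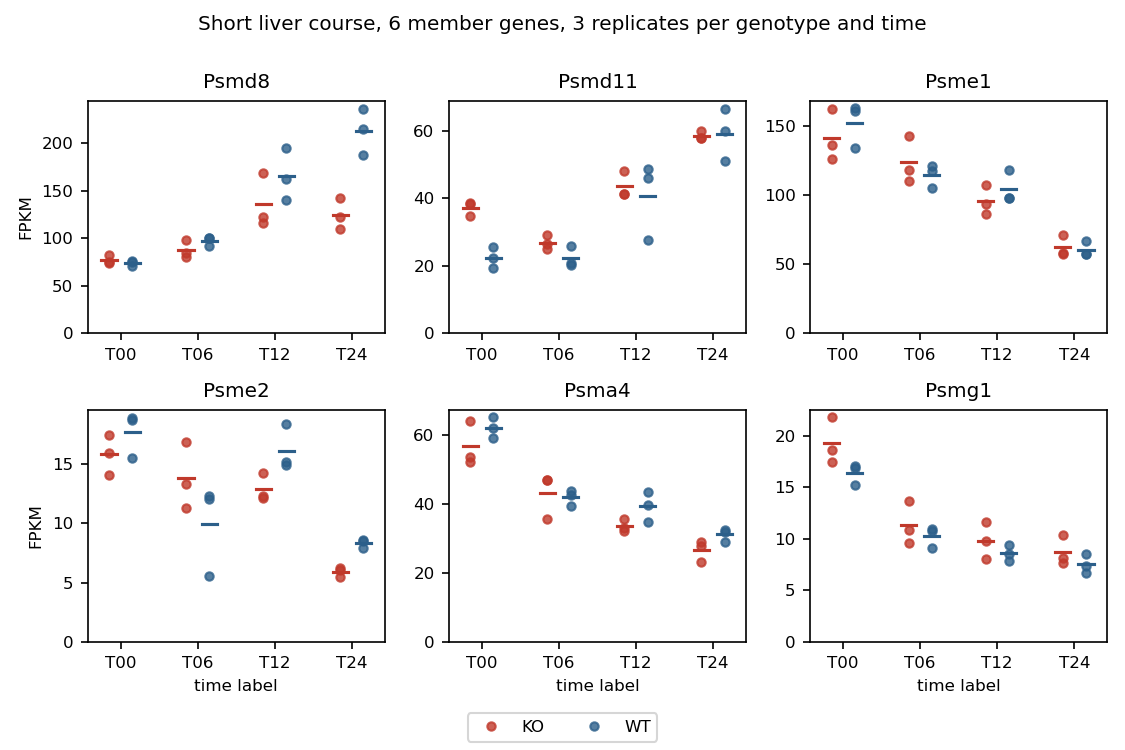
FPKM (y axis, from 0) of 6 members at T00, T06, T12 and T24 of the short liver course, with 3 samples per genotype and time as points and their mean as a dash, KO (red) left of WT (blue). Psmd8 and Psmd11 are higher at T24 than at T00, and Psme1, Psme2, Psma4 and Psmg1 are lower, in both genotypes.

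Stress genes rose over the same 24 h, and genes that work with the proteasome were split. Each change given here is a gene's widest change from T00, at T06, T12 or T24, found separately in KO and WT. The KO and WT values of a gene can therefore stand for different times. All 8 integrated stress response genes rose in both genotypes, as did 9 of 10 NRF2 targets in KO and 8 of 10 in WT and 7 of 10 heat shock genes in each. Trib3, induced by ATF4 and CHOP, rose by 4.44 ± 0.29 in KO and 2.56 ± 0.29 in WT, Hmox1, heme oxygenase, by 7.59 ± 0.26 in KO and 5.86 ± 0.26 in WT, and Hspa1a, a cytosolic chaperone, by 4.71 ± 0.51 in KO and 3.90 ± 0.51 in WT. Of 17 proteasome-associated factors 7 rose and 6 fell in KO, and 5 rose and 5 fell in WT. Those that rose included Zfand2a, a stress-induced proteasome partner (2.56 ± 0.18 in KO, 2.47 ± 0.18 in WT), and Akirin2, which carries proteasomes into the nucleus (1.34 ± 0.12 in KO, 0.96 ± 0.12 in WT). Pomp, the maturation factor of the core, fell by 0.96 ± 0.13 in KO and 0.45 ± 0.13 in WT. Of the 7 p97 complex genes 4 fell and 1 rose in KO, and 3 fell and 2 rose in WT. Of 6 ubiquitin and E1 genes 5 rose and 1 fell in KO, and 4 rose and 1 fell in WT. Ubb, a polyubiquitin gene, rose by 0.73 ± 0.15 in KO and 0.67 ± 0.15 in WT. The 3 immunoproteasome genes fell in both genotypes, Psmb10 by 1.47 ± 0.12 in KO and 1.40 ± 0.12 in WT. Of the 6 genes of NRF1 activation 5 fell and 1 rose in KO, and 4 fell and 1 rose in WT, with Ngly1 at -1.61 ± 0.16 in KO and -1.33 ± 0.16 in WT. The gene that rose was Nfe2l1 itself, by 0.60 ± 0.14 in KO and 0.48 ± 0.14 in WT. Hepatocyte markers fell as well, 7 of 8 in KO and 4 of 8 in WT with 1 rising, and 5 of 8 macrophage markers rose and 2 fell in each genotype. All 4 tested epithelial markers rose, with a median of 3.31 in KO and 2.71 in WT. The 6 listed summed to 90.0 to 99.1 FPKM at T00, 468 to 811 FPKM at T12 and 343 to 481 FPKM at T24 in KO. In WT they summed to 154 to 172, 538 to 1064 and 329 to 519 FPKM at the same times. Of 6 endothelial markers 4 rose and 2 fell in each genotype. They summed to 34.0 to 42.4 FPKM at T00, 173 to 266 FPKM at T06 and 137 to 207 FPKM at T24 in KO, and to 33.4 to 47.0, 196 to 231 and 197 to 290 FPKM at the same times in WT. Their part in the fall of the subunit genes was not tested.

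The core genes lay above the regulatory genes in every library, by an offset that was alike in both fibroblast genotypes and smallest at T24 within the short course. The offset is the mean log2(FPKM + 1) of the core genes minus that of the regulatory genes in each library, without Psmd13, and is given as a description. The regulatory genes include the base chaperones Psmd5, Psmd9 and Psmd10, while the Psmg chaperones are not counted with the core. The offset is therefore not one of particle subunits alone. It averaged 0.23 ± 0.03 in KO and 0.23 ± 0.03 in WT fibroblasts (SD, n = 24 each), although both particles were lower in KO. In slices it was 0.38 ± 0.10 in KO and 0.36 ± 0.06 in WT (SD, n = 24 each). In the short course it was 0.76 ± 0.04 at T00, 0.77 ± 0.07 at T06, 0.66 ± 0.04 at T12 and 0.50 ± 0.11 at T24 in KO liver, and 0.80 ± 0.04, 0.81 ± 0.06, 0.72 ± 0.14 and 0.60 ± 0.01 at the same times in WT liver (SD, n = 3 each). All 3 T24 values lay below all 3 T00 values in both genotypes. The regulatory mean includes Psmd8 and Psmd11, the members that rose most. The median change at T24, with Psmd13 included, was -0.24 for the core and 0.01 for the regulatory genes in KO. In WT these medians were close, at -0.22 and -0.20. What lies behind the smaller offset was not tested. KO T24 replicate 2, the sample that stood apart, had the lowest offset (0.37), and the other KO T24 samples had 0.56 and 0.57. At T24 the core had 0 members wholly above and 8 wholly below their T00 values in KO and 1 and 7 in WT, while the regulatory particle had 6 above and 7 below in each (34.6% of all genes above and 38.1% below in KO, 34.7% and 36.8% in WT).

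**Figure D5:**
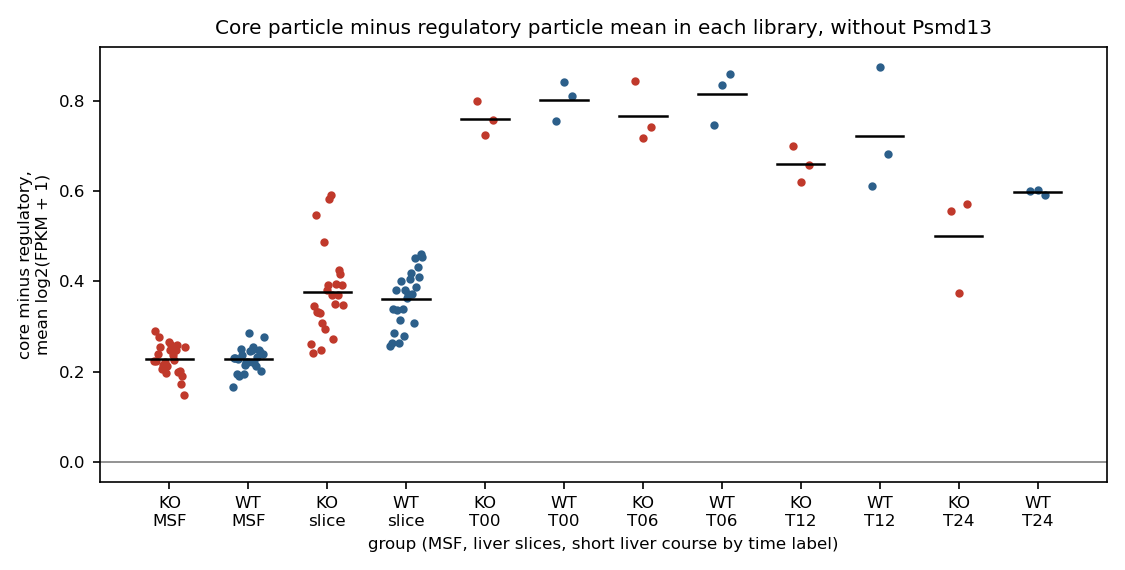
Mean log2(FPKM + 1) of the core particle genes minus that of the regulatory particle genes without Psmd13 (y axis) in each library (points) by group (x axis), with group means as black lines, KO in red and WT in blue. The offset averages 0.23 in both fibroblast genotypes, is higher in slices, and in the short course is lowest at T24 (0.50 in KO, 0.60 in WT).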

How the data were processed

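Poly(A) RNA was sequenced from stranded libraries, as single reads of 50 bases in the long courses, per the labels. Per the submitters' processing notes, TopHat2 2.1.0 and Cuffdiff were used with GRCm38. Sources used here do not give the annotation release or the scaling between libraries. The deposited tables hold FPKM per gene, computed by the authors, with confidence bounds for fibroblasts. All FPKM columns were mapped to samples (0 unmapped). FPKM give no depth, so no counting interval is printed.

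Tests used limma 3.58.1 in R 4.3.3 (variance trend) on log2(FPKM + 1), leaving out genes that average below 1 FPKM, with Benjamini-Hochberg adjustment over all genes and calls at an adjusted p below 0.05. A fold on this scale understates the change of low genes. Genotype in the long courses was fitted with linear and 24 h terms. The short course was fitted with a mean per genotype and time, and time was tested by an F test. Each table was tested on its own. Fits were tested on simulated data: of 100 genes changed by 0.25 (log2), 69 were recovered for the fibroblast genotype difference (15065 genes) and 37 for the slice one (14566 genes). Only 15 were recovered for the short course genotype difference (12547 genes). For the KO slice rhythm 14 were recovered at an amplitude of 0.25 (14224 genes). Counts there can therefore miss differences of this size.

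Members, gene lists and tests were chosen with earlier results of these data known. Named members were, per comparison, up to 4 called in each direction by size, members against the majority, the highest and lowest levels, and members not called, and up to 4 genes per other list by p. Psmb6, Psmb7, Psma1 and Psmc4 in fibroblasts were named outside that rule, after their values were seen. Alternatives were other pseudocounts, filters, scalings, days, libraries, replicates and model terms. Promoters are RefSeq's, matched by symbol, and gene positions GENCODE M21's.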

Additional observations from a re-analysis of the deposited data

Results flagged for a closer look

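The slope over days in culture differed between KO and WT fibroblasts for 7 members by the interaction test (limma, KO minus WT, log2 per 24 h): Psma2 at -0.12, Psmb4 at -0.08, Psmb1 at -0.05, Psmd12 at -0.05, Psmc5 at 0.04, Psmc2 at 0.05 and Psmc3 at 0.12. Of all genes 26.4% were called in this test. Without day 1 none of the 7 was called. After median-of-ratios rescaling Psmc2 (0.03, adjusted p = 0.129, limma) and Psmc5 (0.03, adjusted p = 0.212) were not called.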

How the results depend on the processing

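Counts are of members called. The fibroblast genotype count of 40 was 17 with a size limit of 0.5. The slice genotype count of 37, all lower, turned to 15 with median-of-ratios rescaling (12 higher, 3 lower) and was 5 with the size limit. Without day 1 the slope counts were 3 in KO and 1 in WT fibroblasts, 0 in KO and 6 in WT slices, and the slope difference in fibroblasts was called for 0. Without day 2 the KO slice slope count was 1. Without day 3 the slope counts were 3 in KO and 6 in WT fibroblasts and 0 in both slice genotypes. With no 24 h terms the KO slice slope count stayed at 3 with 2 rising and 1 falling, against 1 rising and 2 falling, and without the KO libraries CT09, CT27, CT39 and CT42, a choice made after seeing the data, it was 5. The KO slice rhythm count of 13 was 6 with no filter and 0 without day 2, without day 3 or without those 4 libraries, and the WT slice rhythm count of 0 was 5 with day as a factor. The short course genotype count of 9 was 0 with 1 mean per replicate number. The cause was not tested.

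Leaving out each time point, also chosen after seeing the data, gave 8 to 10 for the KO and 10 to 13 for the WT fibroblast slope, 2 to 4 for the KO and 8 to 14 for the WT slice slope, 0 to 18 for the KO and 0 to 3 for the WT slice rhythm. Leaving out each replicate of the short course gave 3 to 9 for genotype, 27 to 32 for KO time, 20 to 32 for WT time and 0 for the difference between genotypes. Over all settings 240 counts stayed within 1.5 times the main one, 37 did not and 2 turned direction (both given above), and of the values of named members 1021 kept their call, 121 lost it and 0 turned direction.

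With the replicate block, in which same-numbered KO and WT samples share a level, the short course counts were 9 for genotype, 33 for KO time, 33 for WT time and 0 for the difference. Deviations of same-numbered KO and WT samples correlated at -0.10, -0.02 and 0.05. Those of same-numbered samples at different times correlated at -0.10 to 0.26 within KO and -0.05 to 0.13 within WT. Such correlations cannot decide whether the numbers pair the samples. Replicate labels recur at every time, and whether they stand for the same animal is not stated. Depth is unknown from FPKM, so what it limits could not be computed.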
